A study of Rattus with 6 samples.

Results

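Long non-coding RNAs (lncRNAs) with many reads were followed across H9C2 cells, a line derived from embryonic rat heart, that received either a control plasmid or an RBM25 overexpression plasmid. A row of the count table was taken when its gene type was lncRNA and its reads, summed over the 6 libraries, came to at least 1000; Lnc215, already known from these data to be higher with RBM25, was left out. Members were thus chosen by their read sum, so their levels are given as a description, while the comparison between plasmids did not enter the choice apart from leaving out Lnc215. The rule gave 90 of the 3472 lncRNA rows, among 20742 genes in the table. Each group had 3 libraries of the same cell line and differed, as far as the labels say, only in the plasmid; the labels name neither separate cultures nor clones, so the spread between libraries may be technical.

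lncRNAs are transcripts that are mostly spliced and polyadenylated like messenger RNA but carry no long reading frame. Some act as the RNA itself, on chromatin or in nuclear bodies; others are carriers whose introns hold small nucleolar RNAs (snoRNAs) or microRNAs, and many lie beside or opposite a protein-coding gene. RBM25 is a splicing regulator that works with the U1 particle at 5′ splice sites, and poly(A) capture, used here, sees only lncRNAs that keep a poly(A) stretch.

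Libraries held 25543849 to 33130256 counted reads. Rbm25 was at 49.2, 44.5 and 45.7 CPM (the gene's reads scaled to the depth of the library) in the control libraries and at 56.3, 55.9 and 60.1 CPM in the RBM25 libraries, so the groups did not overlap but the step was small (log2 fold change 0.30 ± 0.047 SE, edgeR adjusted p = 0.0011). These are reads assigned to the rat gene. The genotype labels do not describe the insert of the plasmid, so the step may not measure the full overexpression. Of 12 muscle and heart markers, 8 had at least 1000 reads in all, among them Myod1, Tnnt2 and Nkx2-5, whereas Myh7 (4 reads) and Ryr2 (1 read) were nearly silent. Listed endothelial markers summed to 0.0909 to 0.253 CPM per library, leukocyte markers to 5.62 to 6.95 CPM, mostly from Cd3e, and epithelial markers to at most 29.8 CPM, nearly all from Krt8.

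H19 had the most reads of the lncRNA rows in these cells. H19, an imprinted fetal RNA that also carries a microRNA and is known to be high in embryonic muscle, was the top member by reads and by FPKM (fragments per kilobase of gene, scaled to the depth of the library, on which different genes can be compared). It was at 1941, 2037 and 2098 CPM in the control libraries and at 1869, 2086 and 2007 CPM in the RBM25 libraries. It took 0.186 to 0.210% of all reads per library, and in each library more than the other 89 members together (0.177 to 0.192%), while all lncRNA rows took 0.475 to 0.513%. Some well-known lncRNAs could not be looked up by symbol. Of 13 listed nuclear and architectural lncRNAs 4 were matched, and of 11 listed imprinted ones 1. Malat1, Neat1, Xist and Meg3 were not matched, so H19 could not be compared with them.

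By FPKM, 5 members stood at 100 or more. H19 was at 804 ± 32.2 FPKM in controls and 790 ± 45.6 FPKM with RBM25 (SD, n = 3). Gas5, a host of many snoRNAs that is turned over during translation, followed at 295 ± 12.4 and 297 ± 15.2 FPKM (SD, n = 3). The next were LOC100911177, LOC100912557 and LOC100912041, with means over all libraries of 140, 119 and 114 FPKM. At the other end, 13 members had a mean under 1 FPKM, down to 0.105 FPKM for LOC120102485. The median member was at 3.76 FPKM, against 9.77 FPKM for the 9491 protein-coding genes that also had at least 1000 reads.

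**Figure D1:**
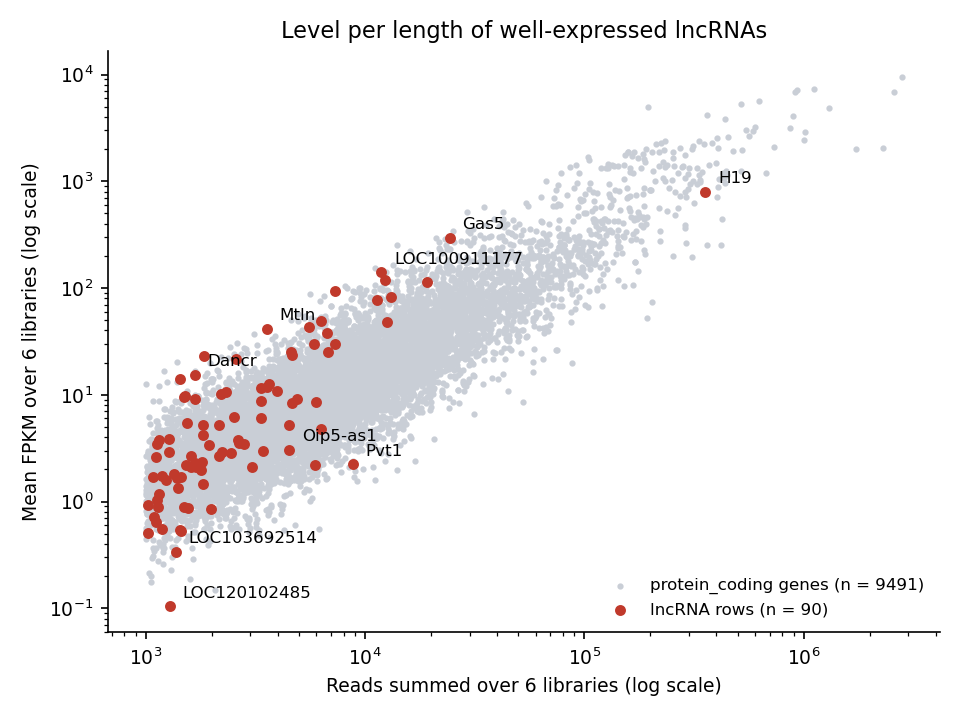
Mean FPKM (vertical, log scale) against reads summed over the 6 libraries (horizontal, log scale) for the 90 lncRNA rows (red) and 9491 protein-coding genes (grey). H19 and Gas5 lie at the upper right of the lncRNAs, and LOC120102485 at 0.105 FPKM is the lowest.

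Reads and FPKM did not give the same order, since FPKM divides by length. Dividing reads by FPKM and by the total of counted reads gives an estimate of the length behind the FPKM, here called the implied length. The length that the authors used is not stated, and implied lengths may differ from it. Among members the implied length ran from 0.434 kb for Ndufb1 to 69.4 kb for LOC120102485. Its median was 3.17 kb (3.66 kb for the protein-coding genes). Pvt1, the RNA next to the Myc locus, was ninth by reads but 61st by FPKM (2.25 ± 0.118 FPKM in controls; SD, n = 3) with an implied length of 22.3 kb. Within the read sums of 5000 to under 20000, the 17 members were short (median 1.01 kb against 3.72 kb) and so had a median of 42.7 FPKM against 14.4 FPKM for protein-coding genes of the same read sums. Between 1000 and 2000 reads the medians were alike, at 1.80 FPKM for 45 members and 1.93 FPKM for 1188 protein-coding genes.

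Not every member is a non-coding RNA by current annotation. A RefSeq gene table of the later assembly GRCr8 held 68 of the 90 symbols and typed 64 as lncRNA and 4 as protein-coding. These 4 were Ndufb1, a subunit of respiratory complex I, Rhno1, a DNA damage response protein, Tmem80, a membrane protein, and LOC100912167. LOC100912557, not matched there, is described in the count table as like a mitochondrial proteolipid, and Mtln encodes the mitochondrial micropeptide mitoregulin although both sources type it as lncRNA. Where such a row has a near-identical copy elsewhere, counting could split its reads, which makes its count uncertain. Of all members, 76 had only a LOC number and 14 a gene symbol. Members lay on most chromosomes, with 10 on chromosome 1 and 8 each on chromosomes 3, 4 and 11 of the files' build, mRatBN7.2.

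The comparison of RBM25 with control plasmid asked whether these RNAs change when the splicing factor is raised. No member passed the test: 0 of 90 reached an adjusted p under 0.05 by edgeR, where 0.404% of all 12882 tested genes and 0.443% of the protein-coding genes with at least 1000 reads did. DESeq2 also called 0, and 20 members were at an unadjusted p under 0.05. The 0 by edgeR depends on leaving out Lnc215, which was known to be higher with RBM25. Lnc215 had 2813 reads, enough for the rule, and was called (edgeR adjusted p = 7.71e-06). The shares of all tested genes were taken without such a removal. In the upward direction alone 0.357% of all tested genes and 0.39% of those protein-coding genes were called. The smallest adjusted p of a member was 0.0768. Fitted log2 fold changes of members ran from -0.19 to 0.42, with standard errors of 0.037 to 0.15, so no fitted change was above 1.33-fold. The count of called members was 4 with no filter on low counts, 1 without RBM25 replicate 1 and 6 without RBM25 replicate 3, and 0 in each of the other fits without 1 library. Calls over all genes moved too, from 52 to 205, 58 and 352 in those 3 fits.

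Below that threshold the members leaned upward. At an unadjusted p under 0.05 there were 20 members, all higher with RBM25, which is 22.2% of the members; of all tested genes 6.4% were higher and 4.78% lower at that level, and of protein-coding genes with at least 1000 reads 6.67% and 5.65%. DESeq2 gave 13 members, all higher, where it had 2.34% of all genes higher. Counted by library values alone, 21 members were higher in every RBM25 library than in any control library and 2 (2.22%) were lower in every one, while 67 overlapped. Among all tested genes 8.31% were higher and 7.94% lower in this way, and among protein-coding genes with at least 1000 reads 8.27% and 9.09%. Positive fold changes were found for 61 of 90 members and for 48.8% of tested genes. The median log2 fold change was 0.054 over members and -0.0021 over all tested genes. Without control replicate 1 the 20 members became 12, with 6.4% of all genes higher, and without RBM25 replicate 3 the median was 0.034.

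**Figure D2:**
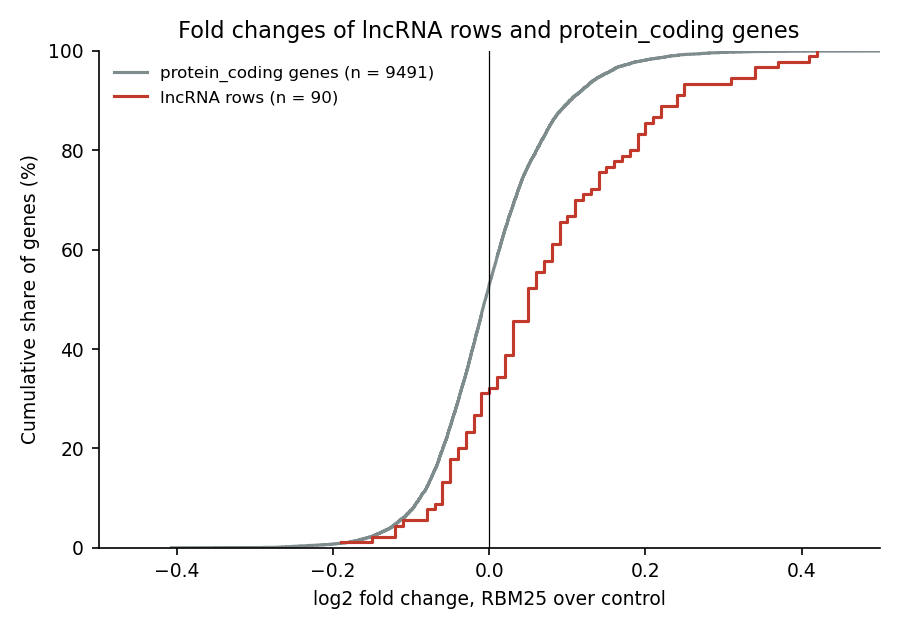
Cumulative share of genes (vertical, %) by log2 fold change, RBM25 over control (horizontal), for the 90 lncRNA rows (red) and 9491 protein-coding genes with at least 1000 reads (grey); 5 protein-coding genes lie beyond the axis. The red line runs to the right of the grey one over most of its length: 67.8% of lncRNA rows and 47.0% of protein-coding genes had a positive fold change.

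Below 20000 reads, protein-coding genes of the same read sums had medians nearer to 0. Among genes with 1000 to under 2000 reads, 14 of 45 members (31.1%) were higher at an unadjusted p under 0.05, against 5.05% of 1188 protein-coding genes, and the median log2 fold changes were 0.094 and 0.017. Between 2000 and 5000 reads it was 3 of 26 members (11.5%) against 7.25% of 2649 genes, with medians of 0.039 and 0.0056. Between 5000 and 20000 reads it was 3 of 17 members (17.6%) against 7.34% of 3953 genes, with medians of 0.048 and -0.0088. The 2 members with more reads, H19 and Gas5, had a median of -0.0088 and neither was at that level, against -0.013 and 5.35% of 1701 genes. These shares are descriptions of the rows that met the rule; no test of the list was made.

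The median member stood above the control mean in each RBM25 library. Taken against the mean of the controls on the log2 scale, the median member stood at -0.033, 0.0089 and 0.018 in control replicates 1, 2 and 3. It stood at 0.041, 0.054 and 0.075 in the respective RBM25 replicates, so the groups did not overlap. Control values lie around 0 by construction, and the RBM25 values all share the same control mean. They are therefore not independent of each other. For protein-coding genes with at least 1000 reads the same medians lay between -0.0077 and 0.002. The share of reads taken by the members other than H19 was 0.177, 0.182 and 0.183% in the controls and 0.185, 0.188 and 0.192% in the RBM25 libraries. Of the 20 members higher at an unadjusted p under 0.05, 7 were highest in RBM25 replicate 1, 4 in replicate 2 and 9 in replicate 3, while 9 were lowest in replicate 3 among the RBM25 libraries.

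LOC120095139, an uncharacterized lncRNA on chromosome 10, came closest to the threshold. It was at 10.6, 8.88 and 9.31 CPM in controls and at 11.8, 11.7 and 12.9 CPM with RBM25. All RBM25 libraries lay above all controls, but the gap between the highest control and the lowest RBM25 library was smaller than the range within the controls (log2 fold change 0.34 ± 0.087 SE, edgeR adjusted p = 0.0768).

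LOC103692514, on chromosome 5, was at 5.69, 6.86 and 7.21 CPM in controls and at 7.94, 9.38 and 9.16 CPM with RBM25. The groups did not overlap, and control replicate 1 was the lowest of all (0.41 ± 0.11, edgeR adjusted p = 0.0799). LOC103693867, on chromosome 15, had the largest fitted difference of the members. It was at 4.75, 5.02 and 4.98 CPM in controls and at 7.46, 6.63 and 5.51 CPM with RBM25, so the controls were tight and RBM25 replicate 3 lay near them (0.42 ± 0.12, edgeR adjusted p = 0.126). These members, with LOC120095139 and Thumpd3-as1, had the largest positive differences among those whose groups did not overlap, and all passed with no filter on low counts (adjusted p = 0.0183, 0.0121, 0.0443 and 0.0238 for LOC120095139, LOC103692514, LOC103693867 and Thumpd3-as1). Without RBM25 replicate 3 the last 3 also passed (0.0430, 0.00648 and 0.0257).

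Among members with a name, the antisense RNA Thumpd3-as1 on chromosome 4 differed most. It was at 6.36, 7.73 and 8.34 CPM in controls and at 9.43, 10.3 and 9.41 CPM with RBM25. The RBM25 libraries were close to each other and the controls were spread (0.37 ± 0.10, edgeR adjusted p = 0.1). The libraries were made with strand marking, but how strand was used in counting is not stated in the labels. Where a member overlaps a gene on the other strand, their reads may therefore not have been told apart. In GRCr8, 15 of the 68 matched members overlap a protein-coding gene, and the strands of the pairs were not compared. Among them are Tug1, LOC120103615, LOC100910319 and Zbtb11os1, which overlaps Zbtb11. Thumpd3-as1 and Oip5-as1 do not overlap their nearest protein-coding genes.

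Of the snoRNA hosts, Dancr was higher in every RBM25 library and Gas5 was not. Dancr, which hosts a snoRNA in an intron and is known for holding progenitor cells undifferentiated, was at 7.50, 9.33 and 8.31 CPM in controls and at 10.9, 10.5 and 9.77 CPM with RBM25. Its groups did not overlap, although control replicate 2 came close to RBM25 replicate 3 (0.31 ± 0.094, edgeR adjusted p = 0.163; 0.0408 without RBM25 replicate 3). Gas5 was at 130, 140 and 140 CPM in controls and at 132, 139 and 144 CPM with RBM25. Its groups overlapped, and its standard error was, with that of H19, the smallest of the members (0.01 ± 0.037, edgeR adjusted p = 0.954). The difference between these genes was not tested. Snhg4, with 409 reads too low to be a member, had a log2 fold change of 0.19, and these were all of the 22 listed host genes that were matched; edgeR and DESeq2 called 0 of the 3, and 1 was at an unadjusted p under 0.05.

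**Figure D3:**
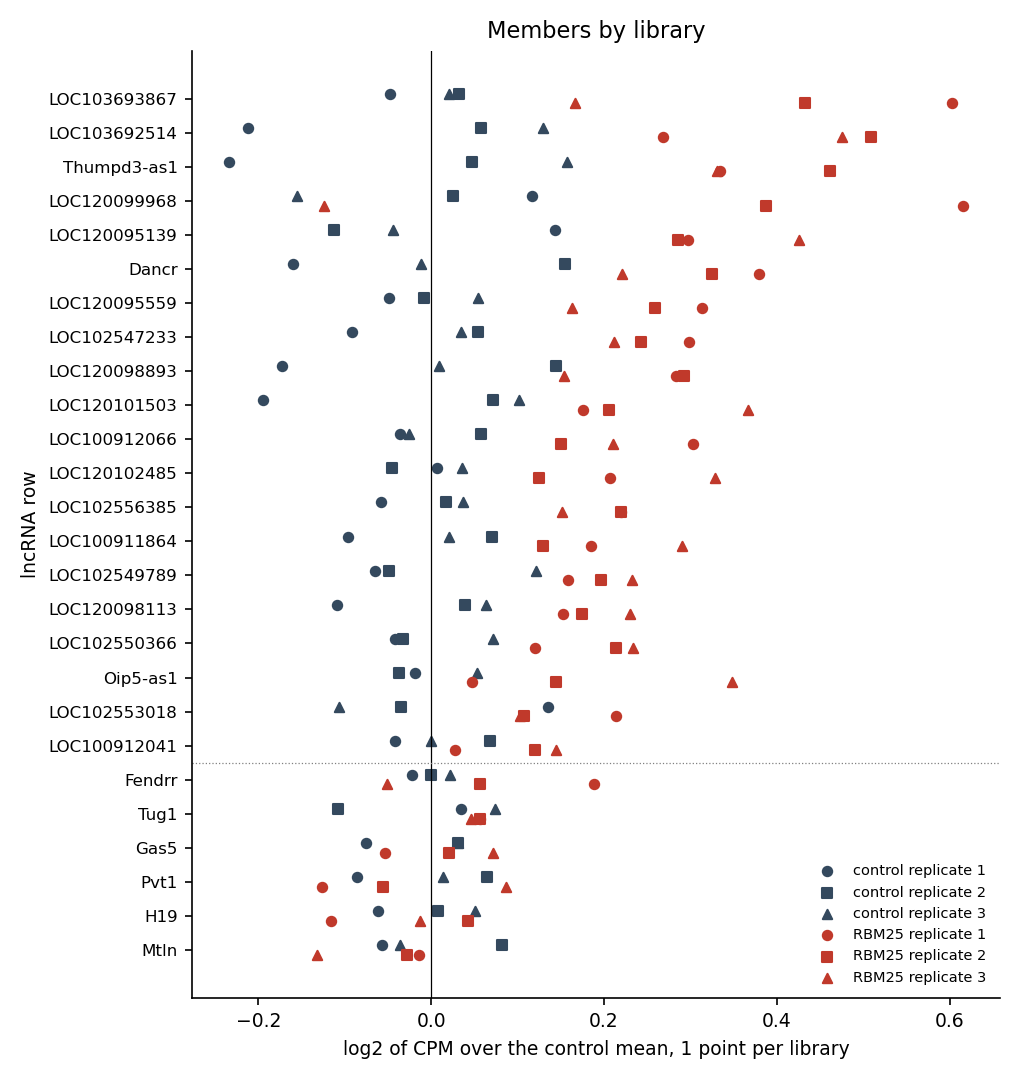
log2 of CPM over the control mean (horizontal), with 1 point per library, for the 20 lncRNA rows at an unadjusted p under 0.05 (above the dotted line) and 6 named rows for comparison (below it); dark points are control and red points RBM25 libraries, with a marker for each replicate. Above the line 16 of 20 rows have all red points to the right of all dark ones, and in LOC120099968 RBM25 replicate 3 falls among the controls.

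H19, Pvt1 and Tug1 had fitted differences close to 0, unlike Dancr and Oip5-as1, which are also on the lists of known lncRNAs. For H19 it was -0.03 ± 0.037 on the log2 scale (edgeR adjusted p = 0.842), and RBM25 replicate 1 was the lowest library. Pvt1 was at 47.4, 52.6 and 50.8 CPM in controls and at 46.1, 48.4 and 53.4 CPM with RBM25 (-0.03 ± 0.052, edgeR adjusted p = 0.873), and the groups overlapped. Tug1, a conserved nuclear and cytoplasmic RNA, was at 25.5, 23.1 and 26.2 CPM in controls and at 25.9, 25.9 and 25.7 CPM with RBM25, within the control range (0.05 ± 0.060, edgeR adjusted p = 0.800). These signs turned for H19, Pvt1, Tug1 and Gas5 when some single libraries were left out.

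Oip5-as1, also called Cyrano, a conserved RNA that directs the decay of a microRNA, leaned upward. It was at 23.5, 23.2 and 24.7 CPM in controls and at 24.6, 26.3 and 30.3 CPM with RBM25. RBM25 replicate 1 lay within the control range and replicate 3 stood highest (0.18 ± 0.067, edgeR adjusted p = 0.284). Fendrr, which lies beside the developmental factor gene Foxf1 and takes part in heart and body wall development, ran from 19.7 to 20.3 CPM in controls and from 19.3 to 22.8 CPM with RBM25, so its groups overlapped (0.07 ± 0.067, edgeR adjusted p = 0.753). Fendrr, Mtln, Ndufb1, Tmem80, LOC100912167, LOC102547042, LOC102549789, LOC120098893, LOC120099961, LOC120099967, LOC100912066 and LOC120102485 are outside the rule for named genes and were chosen after their values were seen.

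None of the members that are protein genes by name passed the test. Ndufb1 was at 41.8 ± 1.24 and 40.0 ± 2.48 CPM, Mtln at 20.5 ± 1.04 and 19.7 ± 0.867 CPM, Rhno1 at 19.8 ± 0.515 and 20.5 ± 0.201 CPM, and Tmem80 at 7.11 ± 0.733 and 7.30 ± 0.430 CPM in controls and RBM25 libraries (SD, n = 3). The 4 rows that RefSeq types protein-coding had a median log2 fold change of 0.014, against 0.052 for the 64 typed lncRNA and 0.057 for the 22 not matched, and without these 4 rows the median of the members was 0.055.

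Fold changes were negative for 29 members, and in 2 of these every RBM25 library was below every control. Zbtb11os1, which runs opposite the zinc finger gene Zbtb11, was at 7.73, 7.45 and 7.57 CPM in controls and at 6.97, 7.04 and 6.44 CPM with RBM25. The groups did not overlap, yet the difference did not pass (-0.15 ± 0.098 SE, edgeR adjusted p = 0.595). LOC120101664 was at 12.2, 12.9 and 12.1 CPM in controls and at 12.0, 11.9 and 12.1 CPM with RBM25 (-0.05 ± 0.076, edgeR adjusted p = 0.857), a step of 3.46% downward between groups that barely separate. The lowest fold change of all, -0.19 for LOC102547042 on chromosome X, belonged to a member whose groups overlapped.

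The other members with the most reads, known by LOC numbers alone, had fitted differences of at most 0.11 in size. LOC100912041 was at 101, 109 and 104 CPM in controls and at 106, 113 and 115 CPM with RBM25 (0.09 ± 0.038 SE, edgeR adjusted p = 0.329). LOC120100006 was at 72.2, 70.3 and 74.1 CPM in controls and at 74.3, 78.5 and 75.4 CPM with RBM25, a difference of 5.36% with no overlap (0.08 ± 0.038, edgeR adjusted p = 0.472). LOC103691688, LOC100912557, LOC100911177, LOC102549726 and LOC120103615 had log2 fold changes of 0.03, 0.05, 0.02, -0.05 and 0.11, with overlapping groups in each; that of LOC100911177 ran from -0.03 to 0.08 without 1 library. LOC120103615 was lowest of all 6 libraries in RBM25 replicate 3 (37.5 CPM, against 45.7 and 44.3 CPM in replicates 1 and 2), and without that library it passed (0.19, edgeR adjusted p = 0.0237).

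The upward lean was larger among members of long implied length. Of 15 members of 8 kb or more, 13 had a positive fold change and 7 were higher at an unadjusted p under 0.05; their median log2 fold change was 0.18, against 0.019 for 1318 protein-coding genes of such length, of which 12.8% were higher at that level. Those 7 were LOC103693867, LOC103692514, LOC120098893, LOC120102485, LOC100912066, LOC102549789 and Oip5-as1, while Pvt1 (22.3 kb) and LOC120099967 (14.9 kb) were at -0.03 and -0.01. Medians for members under 1 kb, from 1 to 2, 2 to 4 and 4 to 8 kb were 0.051, 0.011, 0.029 and 0.081, over 16, 18, 18 and 23 members. Protein-coding genes had -0.004, -0.0096, -0.014 and 0.0012 in these classes, so their highest median was also at the long end.

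By library, the members of 8 kb or more had medians of -0.044, 0.018 and 0.017 in control replicates 1, 2 and 3 and of 0.18, 0.14 and 0.15 in RBM25 replicates 1, 2 and 3. Of the 15 long members 13 had fewer than 5000 reads; protein-coding genes with 1000 to under 5000 reads and 8 kb or more had a median of 0.030, against 0.19 for the 13 members in that range. In the same range of reads, the members of 1 to 2 kb went the other way, with a median of -0.06 and 5 of 13 positive, against -0.0096 and 45.1% for protein-coding genes. Across the 90 members, which are not independent replicates and share the same libraries, log2 fold change and implied length had Spearman's rho of 0.31; across the protein-coding genes it was 0.12. Without RBM25 replicate 2 the median of the long members was 0.11, and on log2(FPKM + 1) values it was 0.061, where their own median level was 0.723 FPKM. The part of length in the lean was not tested. Subtracting the protein-coding median of each length class gave a members' median of 0.054. Those class medians lay only between -0.014 and 0.019, so the subtraction could move the members' median little and cannot decide the question. The length classes were chosen after the values were seen, and FPKM rounded to 2 decimals makes the longest implied lengths coarse. Oip5-as1, at 8.33 kb, lay close to the edge of the longest class, so its place there depends on the estimate of length.

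**Figure D4:**
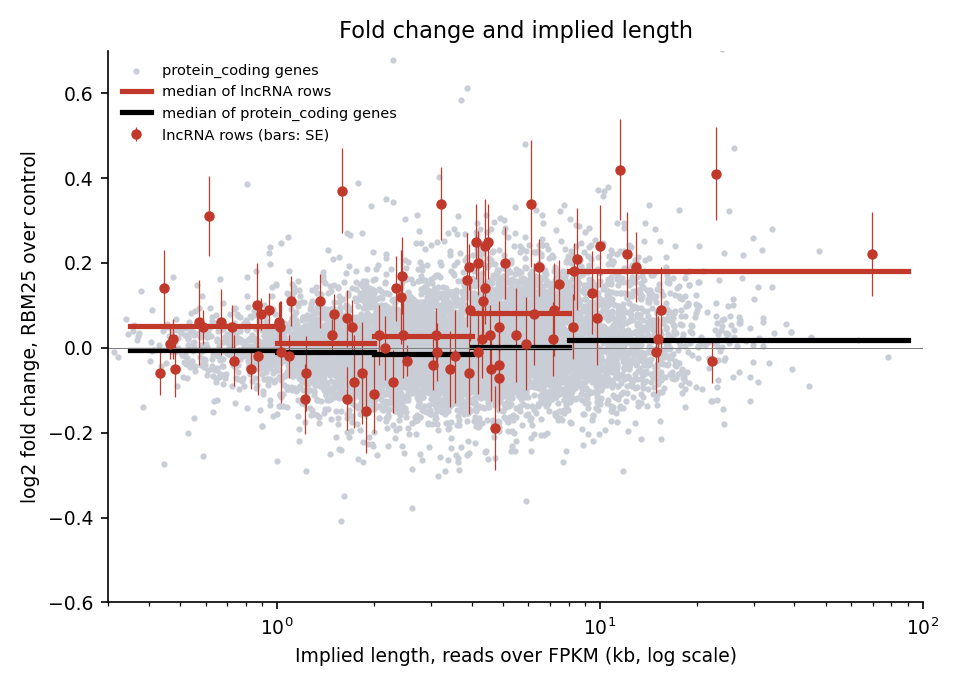
log2 fold change, RBM25 over control (vertical), against implied length in kb (horizontal, log scale) for lncRNA rows (red, bars are SE) and protein-coding genes with at least 1000 reads (grey); thick lines are class medians, and 2 protein-coding genes lie beyond the vertical limits and 1 beyond the horizontal. The red medians exceed the black ones in all 5 classes and reach 0.18 at 8 kb or more, against 0.019; with fewer than 5000 reads the order is the other way from 1 to 2 kb (-0.06 against -0.0096).

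The nearest protein-coding genes were looked at beside the members. Of the 68 members matched in GRCr8, 15 overlapped a protein-coding gene, and 52 had a nearest protein-coding gene that was tested here. None of those neighbours was called by edgeR (5 were at an unadjusted p under 0.05, a level that 11.2% of all tested genes reached). The fold changes of members and neighbours had a Pearson r of -0.019 over these pairs, some of whose neighbours have very few reads, such as Dlx2 with 64 reads (-0.84 ± 0.42), so the coefficient says little. For the 12 members at an unadjusted p under 0.05 with a tested neighbour, the neighbours' median log2 fold change was -0.0059, with 5 of 12 positive. H6pd, an enzyme of the endoplasmic reticulum next to LOC103692514, was at -0.06, and Setd5, a chromatin regulator next to Thumpd3-as1, at -0.0033. Zbtb11, which Zbtb11os1 overlaps, was at 0.05 while Zbtb11os1 was at -0.15. Other pairs had the same sign: Ccn1, a secreted matrix protein, was at 0.15 next to LOC102553018 (0.15), and Usp46, a deubiquitinating enzyme, at 0.08 next to Dancr (0.31). These pairs were chosen after their values were seen. Of the 15 overlapping members 1 was at an unadjusted p under 0.05, against 13 of the 53 that did not overlap and 11.2% of all tested genes; the difference was not tested.

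The spread between replicates of a group was close to that of protein-coding genes of the same read sum among the less abundant members and somewhat larger among the more abundant. The spread was taken as the SD of log2 CPM within groups, pooled over both. Its median was 0.108 for members and 0.107 for protein-coding genes with 1000 to under 2000 reads, where counting error alone gives about 0.0932. It was 0.0838 and 0.0780 between 2000 and 5000 reads, and 0.0616 and 0.0507 between 5000 and 20000. Over all members it was 0.0917, and over all protein-coding genes with at least 1000 reads 0.0587; the counting error of the median member was 0.0777 and that of the median protein-coding gene 0.0439.

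Single members departed from this in both directions. LOC120099968 had the largest spread, 0.265, with 8.55, 7.30 and 5.12 CPM in RBM25 replicates 1, 2 and 3 and 6.05, 5.68 and 5.01 CPM in controls, so replicate 3 sat at the level of the controls (adjusted p = 0.414 by edgeR, and 0.00509 without RBM25 replicate 3). LOC108349908 (0.209) was also set apart by RBM25 replicate 3, there the highest at 11.8 CPM against 8.79 and 7.90 CPM. LOC100910319 followed at 0.190. The smallest spread was that of LOC100909675, at 36.9, 36.7 and 37.0 CPM in controls and 39.5, 38.5 and 39.2 CPM with RBM25, whose SD of 0.0133 is below the 0.0430 that counting error gives. Its groups did not overlap, but edgeR, which shares the estimate of spread between genes, gave an adjusted p of 0.527 (log2 fold change 0.08 ± 0.047 SE). Rhno1 (0.0276) and LOC103691688 (0.0293) came next. The spread was above counting error in 65 of the 90 members and in 76.2% of protein-coding genes with at least 1000 reads. A spread below counting error was thus not peculiar to these rows.

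H19 and Gas5, the 2 members with over 20000 reads, varied more than most genes of their depth. Their spreads were 0.0696 and 0.0626, where protein-coding genes of such read sums had a median of 0.0369 and an upper quartile of 0.0499, and counting error alone gives 0.00592 for H19. With only these members the difference was not tested.

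**Figure D5:**
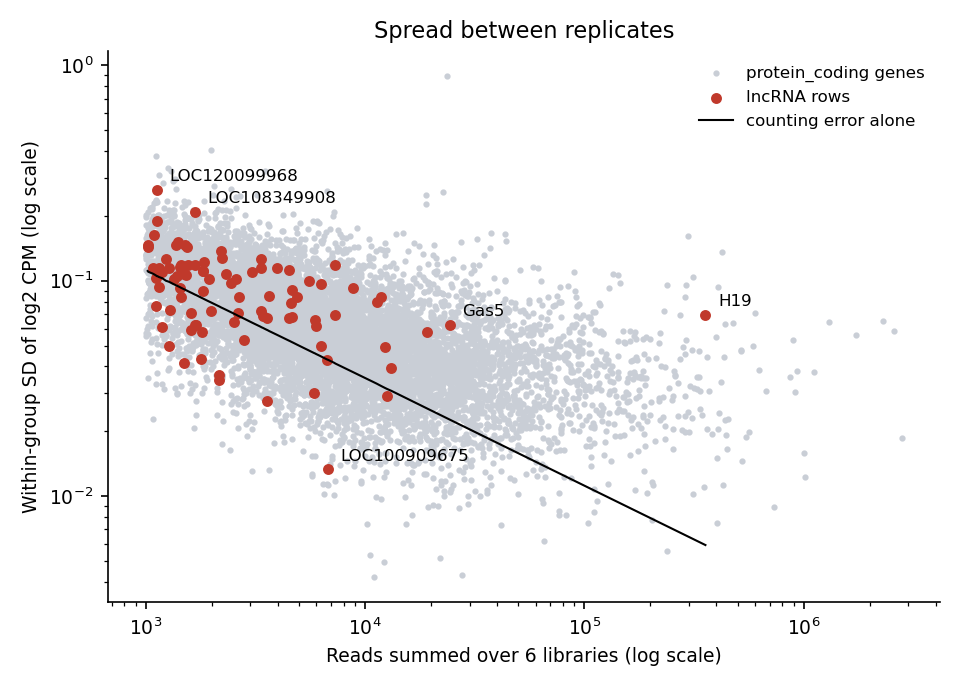
Within-group SD of log2 CPM (vertical, log scale) against reads summed over the 6 libraries (horizontal, log scale) for lncRNA rows (red) and protein-coding genes (grey), with the SD that counting error alone gives (black line). Most lncRNA rows lie within the grey cloud, H19 and Gas5 toward its upper side and LOC100909675 far below the line.

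The cutoff fell within a continuous run of read sums. Just inside were LOC120093190, LOC103693867 and LOC108349241, with 1022, 1029 and 1076 reads and log2 fold changes of 0.08, 0.42 and -0.02. Just outside were LOC120096887, LOC100911717 and LOC108349628, with 989, 982 and 978 reads and log2 fold changes of -0.28, 0.00 and 0.01. The lncRNA rows that did pass the test were not members: Lnc215, left out by the rule, and LOC120099961, with 772 reads, at 3.38, 3.55 and 3.39 CPM in controls and 5.76, 4.8 and 4.9 CPM with RBM25 (0.58 ± 0.13 SE, edgeR adjusted p = 0.0345). Listed lncRNAs below the cutoff, Ftx (0.13), Crnde (-0.06), Hotairm1 (-0.01) and Mir155hg (0.16), did not pass. The lists of imprinted, nuclear and architectural, microRNA host and other known lncRNAs had 1, 4, 2 and 4 tested genes. Their median log2 fold changes were -0.027, 0.020, 0.069 and 0.035. By edgeR and DESeq2, 0 were called in each. Over these lists 1 gene, Oip5-as1, was at an unadjusted p under 0.05. The last list counts Rpph1 (-0.33 ± 0.9 SE), whose gene type is not lncRNA. H19 and Ftx are shared between lists, so the medians are not of separate genes.

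Of the genes for proteins that bind, mature or degrade lncRNAs, Son and Zfc3h1 passed the test. All values here are RNA levels. Calls over all genes fell from 52 to 5 without control replicate 2 and to 21 without control replicate 3. Whether Son and Zfc3h1 passed in those fits is not given here. Of 13 paraspeckle and speckle proteins, Son, which organizes nuclear speckles, rose (141 ± 5.60 to 157 ± 2.70 CPM; 0.15 ± 0.034, edgeR adjusted p = 0.0341), 12 did not pass, and the median log2 fold change was 0.0082. At an unadjusted p under 0.05 there were 4 of the 13, Son, Pspc1 (0.15), Tardbp (0.08) and Matr3 (0.13), all higher. The paraspeckle core proteins Nono and Sfpq were at -0.06 and 0.01. Of 18 factors of nuclear RNA decay and 3′ end processing, Zfc3h1, a part of the nuclear exosome targeting machinery for polyadenylated RNA, rose (15.7 ± 1.03 to 19.6 ± 0.818 CPM; 0.32 ± 0.070, edgeR adjusted p = 0.0305) but was not called by DESeq2, 17 did not pass, and the median was 0.068 with 14 positive, where 48.8% of all tested genes were. At an unadjusted p under 0.05 there were 4 of the 18, Zfc3h1, Dis3 (0.21), Mtrex (0.09) and Zcchc8 (0.13), all higher. Of 14 factors of nonsense-mediated decay, the route that degrades snoRNA host transcripts, edgeR and DESeq2 called 0, and the median was 0.010. At an unadjusted p under 0.05 there were 2 of the 14. Upf3b was higher and nearest to the threshold (0.25 ± 0.063, edgeR adjusted p = 0.0768), and Upf1 was lower (-0.09 ± 0.041). These counts stand beside the 0.404% of all tested genes called, and the 11.2% at an unadjusted p under 0.05.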

How the data were processed

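The 6 libraries (3 control, 3 RBM25) were made from poly(A) RNA with strand marking and sequenced as read pairs, per the labels' protocols. Per the submitters' processing notes the tools were HISAT2 and DESeq2 and the build mRatBN7.2, with no versions; which program counted reads, on which annotation and whether by strand is not stated. The deposited values are unnormalized read counts per gene, with library totals of 25543849 to 33130256, and the FPKM values that the authors computed and rounded to 2 decimals.

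Counts were tested in edgeR 4.0.16 (R 4.3.3) over all genes kept by filterByExpr (minimum count 10; 12882 genes), with TMM factors of 0.996 to 1.01, a robust quasi-likelihood fit on group alone and Benjamini-Hochberg adjustment; the common biological coefficient of variation was 3.91%. The fit was tested on simulated data. It called 25 of 49 genes simulated at 1.2-fold, 40 of 50 at 1.5-fold, 49 of 50 at 2-fold and 44 of 50 at 0.667-fold. Of 12577 genes simulated without a change, 14 were called. The changed genes were drawn from all kept genes, so these values do not give the recovery for members alone. CPM are TMM-scaled, and the spread used log2(CPM + 0.5). DESeq2 1.42.0 and limma-trend 3.58.1 on log2(FPKM + 0.1), with a mean FPKM of at least 0.1, were alternatives. SE is the size of the log2 fold change over the square root of F.

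Members, lists and read-sum bins (edges at 1000, 2000, 5000 and 20000) were chosen with earlier results of these data known. Genes were named by rule: called members, the 10 with most reads, members on 5 lists of known lncRNAs, the 4 largest rises and falls without overlap, the 3 largest and smallest spreads, the 3 rows on each side of the cutoff, and neighbours. Neighbours and gene types come from a RefSeq table of GRCr8, from which no coordinates are given.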

Additional observations from a re-analysis of the deposited data

How the results depend on the processing

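Called members numbered 0 as reported, 0 with RLE or upper-quartile factors, DESeq2 or limma-trend, 4 with no filter on low counts, 1 when rows with at least 500 reads were taken (LOC120099961), and 0 to 6 when 1 library was left out. All genes called numbered 52, and 205 with no filter, 7, 5 and 5 with limma-trend (pseudocounts 0.1 and 1, and no filter), and 5 to 352 without 1 library. Members higher at an unadjusted p under 0.05 numbered 20, and 13 with DESeq2, 13 with unfiltered limma-trend and 12 to 19 without 1 library; lower at that level were 0 as reported, 1 with each limma-trend fit and 2 without RBM25 replicate 3. Members without overlap and higher numbered 23 to 29 without 1 library, where 12.1 to 15.3% of all genes were higher in this way; 3 to 6 members were then lower without overlap, against 2 as reported. The members' median log2 fold change kept its sign under every alternative run, at 0.030 to 0.077, the lowest for rows with at least 2000 reads. For members of 8 kb or more it was 0.11 to 0.21 without 1 library, 0.12 on log2(FPKM + 0.1) with or without the filter and 0.061 on log2(FPKM + 1), which compresses low values by its construction. The median spread of members was 0.0809 with a pseudocount of 2, 0.0709 as edgeR's tagwise coefficient of variation, which leaves out counting error, and 0.0752 to 0.0940 without 1 library.

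With the replicate number as a block, 6 members and 436 genes were called. The labels do not say whether same-numbered libraries were handled together. Deviations of same-numbered libraries correlated at 0.10, -0.084 and 0.010. Control replicate 1 correlated best with RBM25 replicate 1. Control replicates 2 and 3 correlated best with RBM25 replicates 3 and 2 (0.069 and 0.10), not with their own number. With 3 libraries per group, these correlations cannot decide whether the numbers mark shared batches.

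Of 364 refits of the 26 named members, 330 kept sign and side of the threshold, 16 passed it and 18 turned sign. Sign turned without 1 library, with no call, for Gas5 (-0.02 to 0.04), H19 (-0.06 to 0.02), Pvt1 (-0.09 to 0.02), Tug1 (0.00 to 0.09), LOC100910319 (-0.18 to 0.04), LOC100911177 (-0.03 to 0.08), LOC108349241 (-0.06 to 0.08), LOC120093190 (-0.04 to 0.18) and LOC108349908 (-0.18 to 0.11, and 0.00 with upper-quartile factors). The cause was not tested. The least abundant member had a counting error of 0.111 in log2 per library, and standard errors reached 0.15, which limits what could be detected in single members.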

Other observations

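Less abundant lncRNA rows had the same sign of lean but more noise. Of 706 other tested lncRNA rows with fewer than 1000 reads, 436 (61.8%) had a positive log2 fold change with a median of 0.076, and 47 of the 60 at an unadjusted p under 0.05 were higher with RBM25. That is 6.66% of these rows, near the 6.4% of all tested genes, and 8.92% were higher without overlap, against 8.31% of all tested genes. Their median level was 0.302 FPKM.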
